A study of Mus musculus with 39 samples.

Results

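The hypothalamus of control mice was compared with the mean of the amygdala, cortex and hippocampus of the same mice, each region having equal weight. Of the 39 arrays of the series, 19 came from control mice and entered the comparison, namely 5 of the hypothalamus and 14 of the other regions (4 amygdala, 5 cortex, 5 hippocampus). The samples were chosen by their labels alone. Mice are called here by the replicate number of their samples, and mouse 4 had no amygdala array. Control mice were male and experimentally naive and carried the floxed *Pianp* allele, labelled FL, on a C57BL/6N-derived background. They still expressed *Pianp*, a neuronal membrane protein gene. The 20 arrays of 5 male PianpKO mice, in which CMV-cre had deleted the floxed allele in the whole body, served only to repeat the contrast in other animals. The mice were adult. The methods give a single broad age range, from young adults upward, for several kinds of experiment and no ages of single animals. Regions were cut from coronal sections by hand with brain punches, so that each sample was a piece of bulk tissue with the neurons, glia and vessels it held. A lower signal could therefore come from fewer cells of a type or from less RNA per cell, and these cannot be told apart.

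The hypothalamus is a small region at the base of the forebrain that governs hormone release from the pituitary, feeding, drinking, body temperature, sleep and reproduction. It does so largely through neuropeptides. Magnocellular neurons send oxytocin and vasopressin into the blood, and parvocellular neurons send releasing hormones to the anterior pituitary. Most of its neurons use GABA or glutamate loaded by vesicular transporter 2 (*Slc17a6*), whereas the excitatory neurons of the cortex and hippocampus use vesicular transporter 1 (*Slc17a7*) and are specified by a different group of transcription factors.

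Values were log2 expression of 25429 probe sets, 1 per gene, and ran from 2.75 to 13.91 with a median of 4.62 on every array. Differences are log2 values of the hypothalamus minus the mean of the 3 other regions, given with the standard error (SE) of a limma fit that held the mouse as a block. A probe set was called when its Benjamini-Hochberg adjusted p was under 0.05 and its difference was at least 1 on the log2 scale in either direction. Means are given ± SD of the 5 control samples of a region (4 in the amygdala). Correlations between arrays of 1 group lay between 0.989 and 0.996, and no pair of arrays was identical. Hypothalamus replicates 1 and 4 had mean correlations of 0.991 and 0.992 to the rest of their group, against 0.993 to 0.994 for the other 3. Counts of calls are given without each of them, and named genes that lost their call without 1 of them are marked. Genes that kept their call could also change in size without them, and only some of these sizes are given.

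The genes called higher in the hypothalamus included peptide hormones, genes of GABAergic, cholinergic and dopaminergic neurons and 7 imprinted genes. Those called lower included transcription factors and vesicle proteins of telencephalic excitatory neurons. Of all probe sets tested, 132 were called higher (0.519%) and 64 lower (0.252%). At an adjusted p under 0.05 alone there were 2266 higher (8.91%) and 2159 lower (8.49%). Counts in the gene lists below are to be read beside these shares. The lists were chosen with earlier results of these data known, so such counts describe their members and are no independent test. Differences reached 2 on the log2 scale in 22 of the higher and 1 of the lower probe sets. The largest fold difference was 23.5 among the higher, for *Oxt*, and 6.0 among the lower, for *Neurod6*. Within mice, 131 of the 132 were higher in the hypothalamus than in the mean of the mouse's other regions in all 5 animals, and all 64 lower probe sets were lower in all 5. Among all probe sets, 12.8% were higher and 13.7% lower in all 5 mice. The called probe sets were chosen on these same values, so their agreement between mice is a description and no separate support. Without hypothalamus replicate 1, 106 were called higher and 38 lower, of which 106 and 35 were among the original calls. Without replicate 4, 130 and 64 of the original calls remained, and 25 and 21 others were called.

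Distance from the hypothalamus differed between the other regions. Against the cortex alone 1.2% of probe sets were called higher and 0.877% lower, against the hippocampus 0.602% and 0.617%, and against the amygdala 0.248% and 0.228%. The median SE of these pairwise differences was 0.0826 for the cortex and hippocampus and 0.0892 for the amygdala, which had 1 sample fewer. Differences of at least 1 with no test numbered 530 for the cortex, 314 for the hippocampus and 127 for the amygdala. Among the 132 genes called higher, the amygdala had the highest mean of the 3 other regions in 108 and the hippocampus in 24. Their median difference was 0.92 to the amygdala, 1.37 to the hippocampus and 1.81 to the cortex. Genes of releasing hormones and magnocellular peptides had a list mean of 6.28 to 7.14 in the amygdala samples. It was 5.41 to 5.57 in the cortex, 5.10 to 6.23 in the hippocampus and 7.69 to 8.01 in the hypothalamus. What hypothalamic tissue in the amygdala punches adds to the closeness of these regions was not tested. In all, 37 probe sets (0.146%) were called higher than each region separately and 14 (0.0551%) lower than each. Without hypothalamus replicate 1 these counts were 28 and 5, and without amygdala replicate 1 the lower count was 6. Without hypothalamus replicate 4 they were 47 and 23.

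The 3 largest differences belonged to peptide hormone genes of the paraventricular and supraoptic nuclei. *Oxt* encodes oxytocin, which acts on the uterus, the mammary gland and social behavior. Its values in the 5 hypothalamus samples were 9.998, 8.91, 9.03, 9.07 and 9.44. The amygdala had 5.38, 6.78, 7.56 and 5.45, and no sample of the cortex exceeded 4.22 or of the hippocampus 5.18. The hypothalamus thus lay apart from all 14 other samples, and the difference was 4.55 (SE 0.31, adjusted p = 5.2e-07). *Avp* encodes vasopressin, the antidiuretic hormone. It measured 11.50, 12.16, 11.46, 11.93 and 12.29 in the hypothalamus and 9.55, 10.38, 10.86 and 10.20 in the amygdala. The cortex lay between 6.35 and 6.79, whereas the hippocampus was spread from 5.78 to 9.43. Its difference was 3.75 (SE 0.34, adjusted p = 4.12e-06), and that to the amygdala alone 1.70. *Trh* encodes thyrotropin-releasing hormone. Its hypothalamic values of 9.14, 9.43, 9.11, 8.61 and 9.32 again exceeded every other sample, the closest being amygdala replicate 3 with 7.65. The difference was 3.64 (SE 0.23, adjusted p = 3.56e-07). These 3 were the only called members among the 7 genes of the list of releasing hormones and magnocellular peptides, whose median difference was 0.79 against -0.01 over all probe sets. *Gnrh1*, for gonadotropin-releasing hormone, and *Crh*, for corticotropin-releasing hormone, had differences of 0.79 and 0.61, which passed the adjusted p but not the size. *Ghrh* (0.16) and *Sst* (0.05) did not pass. *Sst*, for somatostatin, was at 11.03 in the hypothalamus, between 10.58 in the hippocampus and 11.31 in the amygdala.

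*Oxt* and *Avp* lie next to each other on chromosome 2 and are read towards each other, and *Trh* lies on chromosome 6. Their promoters are shown because these genes had the largest differences. RefSeq windows (GRCm38.p6) run from 250 bases before to 50 bases after the gene start, 5′ to 3′ on the strand of the gene. Capitals mark AGGTCA, the core recognized by nuclear hormone receptors, on either strand.
Oxt, chr2:130575919-130576218, plus strand: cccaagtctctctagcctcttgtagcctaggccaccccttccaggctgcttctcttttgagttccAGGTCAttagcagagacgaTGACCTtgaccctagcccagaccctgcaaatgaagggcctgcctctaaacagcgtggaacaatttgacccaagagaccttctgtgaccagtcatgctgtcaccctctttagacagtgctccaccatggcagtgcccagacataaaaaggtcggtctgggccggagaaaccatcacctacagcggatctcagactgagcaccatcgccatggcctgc
Avp, chr2:130582539-130582838, minus strand: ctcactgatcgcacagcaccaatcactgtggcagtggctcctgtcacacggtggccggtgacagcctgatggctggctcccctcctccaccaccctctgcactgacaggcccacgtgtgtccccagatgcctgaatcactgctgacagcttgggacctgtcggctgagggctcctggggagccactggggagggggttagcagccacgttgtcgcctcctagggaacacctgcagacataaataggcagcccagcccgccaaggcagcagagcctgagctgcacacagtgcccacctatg
Trh, chr6:92244601-92244900, minus strand: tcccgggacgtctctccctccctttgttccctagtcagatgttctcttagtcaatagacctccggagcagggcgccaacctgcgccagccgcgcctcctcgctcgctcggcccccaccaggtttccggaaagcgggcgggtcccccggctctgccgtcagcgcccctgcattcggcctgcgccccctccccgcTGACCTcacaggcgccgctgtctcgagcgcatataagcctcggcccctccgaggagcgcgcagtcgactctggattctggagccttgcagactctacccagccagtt
The window of *Oxt* held 2 matches, at positions -185 on the gene strand and -166 on the opposite strand, counted from the gene start. *Trh* held 1, at -57 on the opposite strand, and *Avp* none. The motif occurred in 16.3% of the 32851 promoter windows of the same length. The cyclic AMP response element TGACGTCA, found in 1.79% of windows, was in none of the 3. Such matches describe the sequence only.

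**Figure D1:**
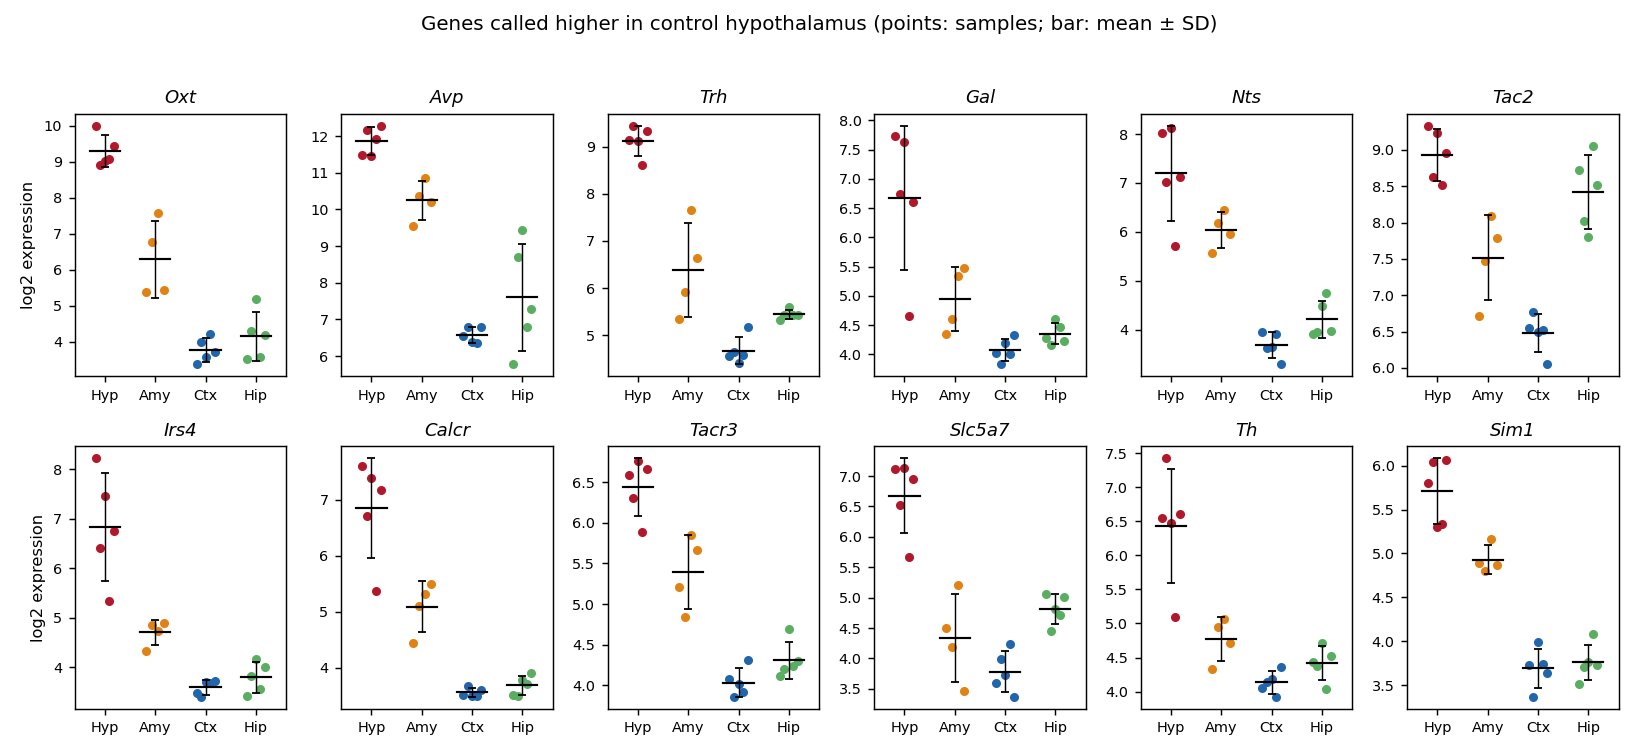
Log2 expression of 12 genes called higher in control hypothalamus, with 1 point per sample for the hypothalamus (Hyp), amygdala (Amy), cortex (Ctx) and hippocampus (Hip) and bars for the mean ± SD. *Oxt*, *Avp*, *Trh*, *Irs4*, *Tacr3*, *Slc5a7*, *Th* and *Sim1* show no overlap between the hypothalamus and the other regions, whereas the lowest hypothalamus sample of *Gal* (4.66), *Nts* (5.71) and *Calcr* (5.38) falls among the amygdala samples, and *Tac2* overlaps with the hippocampus.

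Peptides of feeding and arousal were a mixed group. Of 11 measured genes 2 were called higher and none lower, with a median of -0.01. *Nts*, for neurotensin, had hypothalamic values of 8.03, 7.03, 8.12, 5.71 and 7.12 and a difference of 2.58 (SE 0.28, adjusted p = 1.57e-05). *Gal*, for galanin, a peptide of feeding and sleep circuits, had 7.73, 6.74, 7.63, 4.66 and 6.60 and a difference of 2.27 (SE 0.31, adjusted p = 0.000111). In both genes replicate 4 was the low sample and lay within the range of the amygdala. Without mouse 4 the differences were 2.99 for *Nts* and 2.72 for *Gal*. The classical peptides of the arcuate nucleus and lateral hypothalamus did not follow. *Pomc*, the melanocortin precursor, was at 4.19, 6.90, 4.25, 5.30 and 4.14 in the hypothalamus, and its difference of 0.68 had an adjusted p of 0.217. *Hcrt*, for the wake-promoting orexins, did not exceed 4.04 in any hypothalamus sample but reached 7.23 in amygdala replicate 3 and 5.09 in the hippocampus. *Pmch*, for melanin-concentrating hormone, lay between 4.07 and 6.35 in the hypothalamus, at 10.31 and 10.73 in amygdala replicates 3 and 5, and at up to 9.24 in the hippocampus. For both of these defining markers of the lateral hypothalamus, samples of the amygdala and of the hippocampus thus had higher values than any control sample labelled hypothalamus. With SEs of 0.35 and 0.78, the differences of -0.41 and -1.12 did not pass the test. *Npy* had -0.65, past the adjusted p alone, and *Agrp* had no named probe set.

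Among 14 other neuropeptides, *Tac2* and *Tac1* were called higher and none was lower. *Tac2* encodes neurokinin B. It was 8.93 ± 0.36 in the hypothalamus and 8.42 ± 0.51 in the hippocampus, which overlapped, against 7.52 in the amygdala and 6.48 in the cortex (difference 1.45, SE 0.23). *Tac1*, for substance P, was 7.89 ± 0.29 with no overlap (1.10, SE 0.18). *Penk*, for enkephalin, had 0.81 and *Pdyn*, for dynorphin, 0.68, both past the adjusted p only. *Vip* (-0.29) did not pass. Of 14 genes for prohormone processing and secretory granules, *Resp18*, a granule protein of neuroendocrine cells, was the 1 called higher. It had 10.68, 9.95, 10.25, 9.98 and 10.10 in the hypothalamus and at most 9.72 elsewhere, a difference of 1.31 (SE 0.11). *Scg2*, a secretogranin of dense-core granules, came to 0.96, and without replicate 4 the list had 2 called genes. General processing enzymes were near 0, with 0.05 for *Pcsk1* and -0.01 for *Cpe*.

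Receptors for peptides and hormones included 4 called higher and none lower of 29 measured, with a median of 0.11. Over all probe sets 0.519% were called higher. By the adjusted p alone 14 receptors were higher and 6 lower, against 8.91% and 8.49% of all probe sets. *Calcr*, the calcitonin and amylin receptor, had values of 7.60, 6.70, 7.39, 5.38 and 7.16 in the hypothalamus, between 4.45 and 5.49 in the amygdala and under 4 in the cortex and hippocampus. Its difference was 2.78 (SE 0.23, adjusted p = 1.77e-06). *Glp1r*, the receptor for glucagon-like peptide 1, was 7.96 ± 0.51 against 6.42 ± 0.61, 5.95 ± 0.70 and 5.71 ± 0.91 in the amygdala, cortex and hippocampus, without overlap (1.99, SE 0.28). *Tacr3*, the neurokinin B receptor, was 6.44 ± 0.35 and also above every other sample (1.89, SE 0.11, adjusted p = 2.14e-07). Thus a ligand, *Tac2*, and its receptor were both called. *Esr1*, the estrogen receptor alpha, was 6.18 ± 0.46 in the hypothalamus and 5.55 ± 0.10 in the amygdala, where replicate 4 of the hypothalamus (5.49) fell (1.23, SE 0.15). The receptors for leptin (*Lepr*, -0.03), oxytocin (*Oxtr*, 0.02) and ghrelin (*Ghsr*, 0.37) were not called. Outside the lists, *Irs4*, an insulin receptor substrate, had hypothalamic values of 8.22, 6.42, 7.46, 5.33 and 6.75 and at most 4.89 elsewhere (2.85, SE 0.28, adjusted p = 6.53e-06). *Dgkk*, a diacylglycerol kinase, had 9.11, 7.51, 8.86, 7.54 and 8.01 and at most 6.997 elsewhere (3.10, SE 0.23, adjusted p = 9.32e-07). *Ecel1*, a neuronal metallopeptidase, was 8.42 ± 0.60, its lowest sample at 7.67, and amygdala samples reached 7.62 (2.36, SE 0.20).

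Transcription factors that pattern the hypothalamus were measured mostly at low levels. Of 23, *Fezf1* and *Sim1* were called higher, none was lower, and the median was 0.04. *Sim1* is required for the paraventricular and supraoptic nuclei. It had 5.80, 6.04, 5.30, 5.34 and 6.07 in the hypothalamus, 4.80 to 5.17 in the amygdala and at most 4.08 elsewhere, with no overlap (1.58, SE 0.14, adjusted p = 2.9e-06). *Fezf1*, a factor of the ventromedial hypothalamus, was 6.73 ± 0.51 against 6.10 ± 0.34 in the amygdala (1.76, SE 0.21), and hypothalamus replicates 3 and 4, with 5.95 and 6.48, lay within the amygdala's range. *Isl1* (0.98), *Otp* (0.84), *Six3* (0.61), *Nkx2-1* (0.59), *Six6* (0.59) and *Lhx1* (0.51) passed the adjusted p but not the size. *Nkx2-1*, which defines much of the ventral hypothalamus, was between 4.07 and 4.84 there, close to the array median of 4.62. *Nr5a1*, the defining factor of the ventromedial nucleus, was at a mean of 4.1 and *Rax* at 4.2, with differences of -0.14 and -0.12 that did not pass. In all, 14 of the 23 factors did not pass the adjusted p.

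Of 6 measured genes of GABA and glutamate identity 3 were called higher, against 0.519% of all probe sets, with a median of 0.94. *Gad2*, which makes GABA, was 11.30, 10.96, 11.40, 10.82 and 11.34 and did not overlap with other regions (1.15, SE 0.08, adjusted p = 5.89e-07). *Slc32a1*, the vesicular GABA transporter, was 9.62 ± 0.20 (1.09, SE 0.06, adjusted p = 1.64e-07). *Slc6a11*, the glial GABA transporter GAT-3, was 11.56 ± 0.20 and overlapped with the hippocampus (1.04, SE 0.10). Its call was lost, at 0.99 to 1.00, without hypothalamus replicate 1, amygdala replicate 1 or mouse 1. *Slc17a6* came to 0.84, with 9.55 in the hypothalamus and 9.79 in the hippocampus. The hippocampus samples also had the highest levels of the thalamic markers, with a list mean of 7.34 to 8.19 against at most 6.16 in the hypothalamus, and the part of these in their *Slc17a6* signal was not tested.

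Of 15 genes for monoamine, histamine and acetylcholine synthesis and transport 4 were called higher, against 0.519% of all probe sets. *Slc5a7*, the choline transporter of cholinergic neurons, had 7.12, 6.53, 7.12, 5.67 and 6.94 in the hypothalamus and at most 5.20 elsewhere (2.39, SE 0.24, adjusted p = 8.09e-06). *Chat*, which makes acetylcholine, was 5.66 ± 0.45 without overlap (1.41, SE 0.13). *Th*, the rate-limiting enzyme of dopamine synthesis, had 6.54, 7.42, 6.47, 5.09 and 6.61 and at most 5.07 elsewhere (2.04, SE 0.18). *Ddc*, the next enzyme of the pathway, had a difference of 1.19, and *Pcbd1*, which recycles the cofactor of *Th*, was 7.82 ± 0.40 without overlap (1.91, SE 0.13, adjusted p = 4.31e-07). In all 4 genes of the list replicate 4 was the lowest hypothalamus sample, and without it 6 of the list were called. *Slc18a2* and *Slc18a3*, the vesicular monoamine and acetylcholine transporters, had 0.96 and 0.94 with all samples. Markers of noradrenaline and serotonin neurons, *Dbh* (-0.07) and *Tph2* (-0.10), and of histamine neurons, *Hdc* (-0.07), had means of 3.56, 3.54 and 3.66 in the hypothalamus. Striatal projection neuron genes were not called, but 6 of 9 passed the adjusted p as higher, against 8.91% of all probe sets. *Drd2*, the dopamine D2 receptor, had 0.79, and the list median was 0.44. The part of neighboring forebrain tissue in the striatal and cholinergic signals was not tested.

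Imprinted genes, of which only the maternal or paternal copy is read, held 7 called higher and none lower of 29 measured. Over all probe sets 0.519% were called higher. The list median was 0.25. *Usp29* of the *Peg3* domain was 10.54, 9.88, 10.19, 9.80 and 10.29 (1.30, SE 0.09, adjusted p = 5.2e-07), and amygdala samples reached 9.87. *Grb10*, a growth factor receptor adaptor, was 9.30 ± 0.34 (1.29, SE 0.11). *Dlk1*, a Notch-like membrane protein of growth control, was 8.03 ± 0.30 (1.93, SE 0.15) and overlapped with the amygdala, where it reached 7.65. *Asb4* had 1.93, *Peg10* 1.44, the neuronatin gene *Nnat* 1.24 and *Magel2*, of the Prader-Willi region, 1.17, which was 0.95 and not called without hypothalamus replicate 1. *Peg3*, *Ndn* and *Impact* passed the adjusted p with 0.96, 0.93 and 0.81. For *Usp29*, *Grb10*, *Dlk1* and *Nnat* the amygdala was the next highest region, and *Nnat* differed from it by 0.39, which did not pass (adjusted p = 0.155). In the cluster that holds *Dlk1*, the noncoding genes *Meg3* (0.18) and *Rian* (0.19) did not pass.

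Of 13 astrocyte genes 2 were called higher, *Itih3* and *Agt*, while the general markers *Gfap* (0.08), *Aqp4* (-0.07) and *Aldh1l1* (0.06) had differences close to 0. *Agt*, for angiotensinogen, was 9.84 ± 0.17 in the hypothalamus, 9.21 ± 0.28 in the hippocampus, 8.77 ± 0.50 in the amygdala and 6.34 ± 0.35 in the cortex (1.76, SE 0.15). *Itih3*, an inter-alpha-trypsin inhibitor chain, was 8.72 ± 0.55 without overlap (2.21, SE 0.20). None of 12 oligodendrocyte, 11 microglial, 14 vascular, 8 meningeal, 8 ependymal or 10 tanycyte genes was called. *Dio2*, which tanycytes use to activate thyroid hormone, had -0.998, just short of the size limit, and was the lowest of its list. It was called lower in 16 of 33 alternatives, at -1.02 both without the mouse as a block and with it as a random effect, and at down to -1.11 when single mice or arrays were left out.

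**Figure D2:**
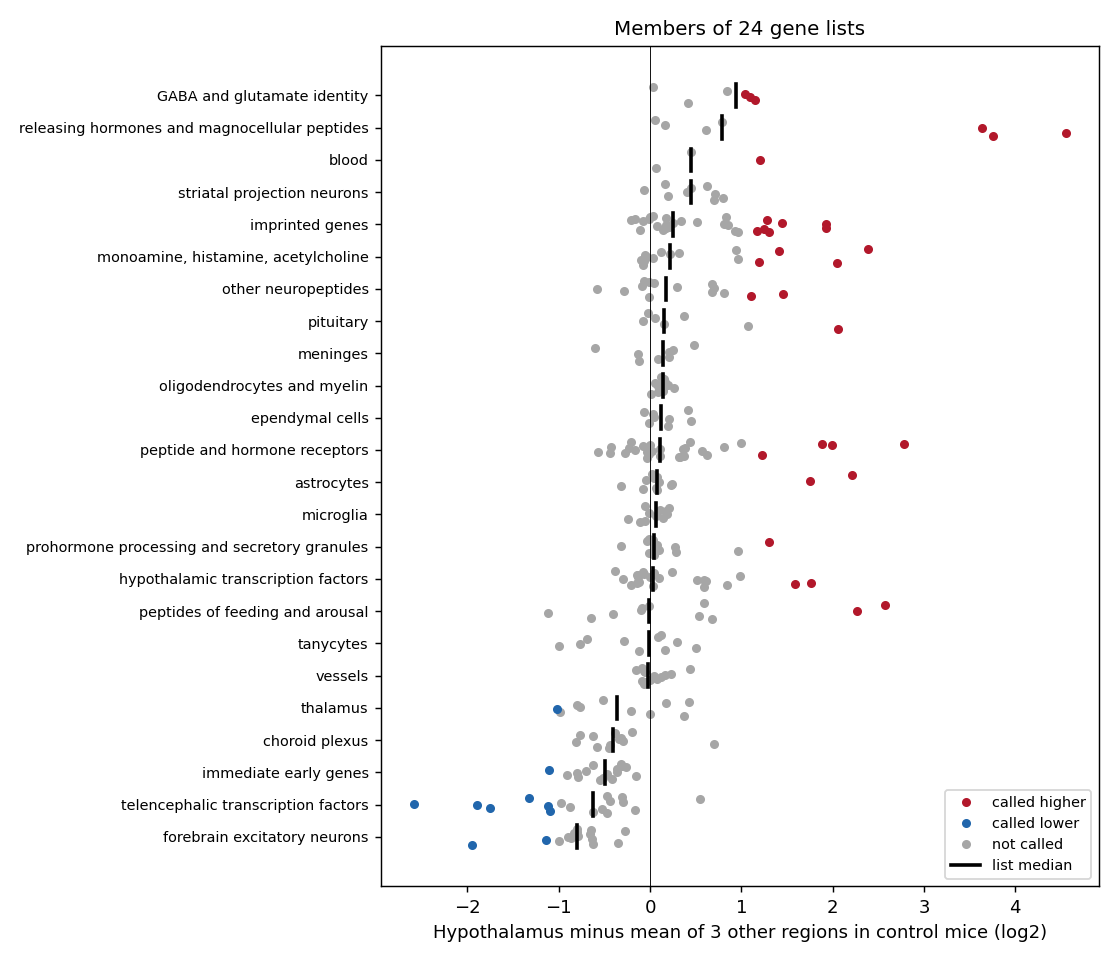
Log2 differences (hypothalamus minus the mean of the 3 other regions, control mice) of the members of 24 gene lists, 1 point per gene, with vertical bars at each list's median. Called genes of the peptide, receptor, transmitter and imprinted lists are to the right, and those of the telencephalic and excitatory lists, with medians of -0.63 and -0.80, to the left.

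Of 17 transcription factors of the telencephalon 6 were called lower and none higher, with a median of -0.63. By the adjusted p 13 were lower, against 8.49% of all probe sets, in a list chosen with earlier results of these data known. *Neurod6*, a basic helix-loop-helix factor of cortical and hippocampal pyramidal neurons, had 4.09, 5.84, 4.78, 5.82 and 5.60 in the hypothalamus, 6.86 to 7.29 in the amygdala and 7.84 to 8.50 in the other regions. The hypothalamus lay below every other sample, with a difference of -2.58 (SE 0.16, adjusted p = 3.81e-07). *Neurod2*, its relative, had 5.16, 8.03, 6.97, 8.04 and 7.41 (-1.90, SE 0.29, adjusted p = 0.000284), and its difference was -1.38 without mouse 1. *Fezf2*, which specifies subcortical projection neurons, was 6.04 ± 0.68 against 8.62 ± 0.15 in the cortex (-1.75, SE 0.18). *Zbtb18*, a repressor needed for cortical neurons, was 8.19 ± 0.40 (-1.32, SE 0.10, adjusted p = 9.32e-07). *Neurod1* (-1.12) and *Tbr1* (-1.09) completed the 6. Without hypothalamus replicate 1 the list had 4 called, *Neurod1* (-0.98) and *Tbr1* (-0.85) falling short of the size. *Eomes*, of cortical progenitors, had 0.54 and passed the adjusted p, though 4 of its 5 hypothalamic values were under 4 and replicate 2 had 5.05.

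**Figure D3:**
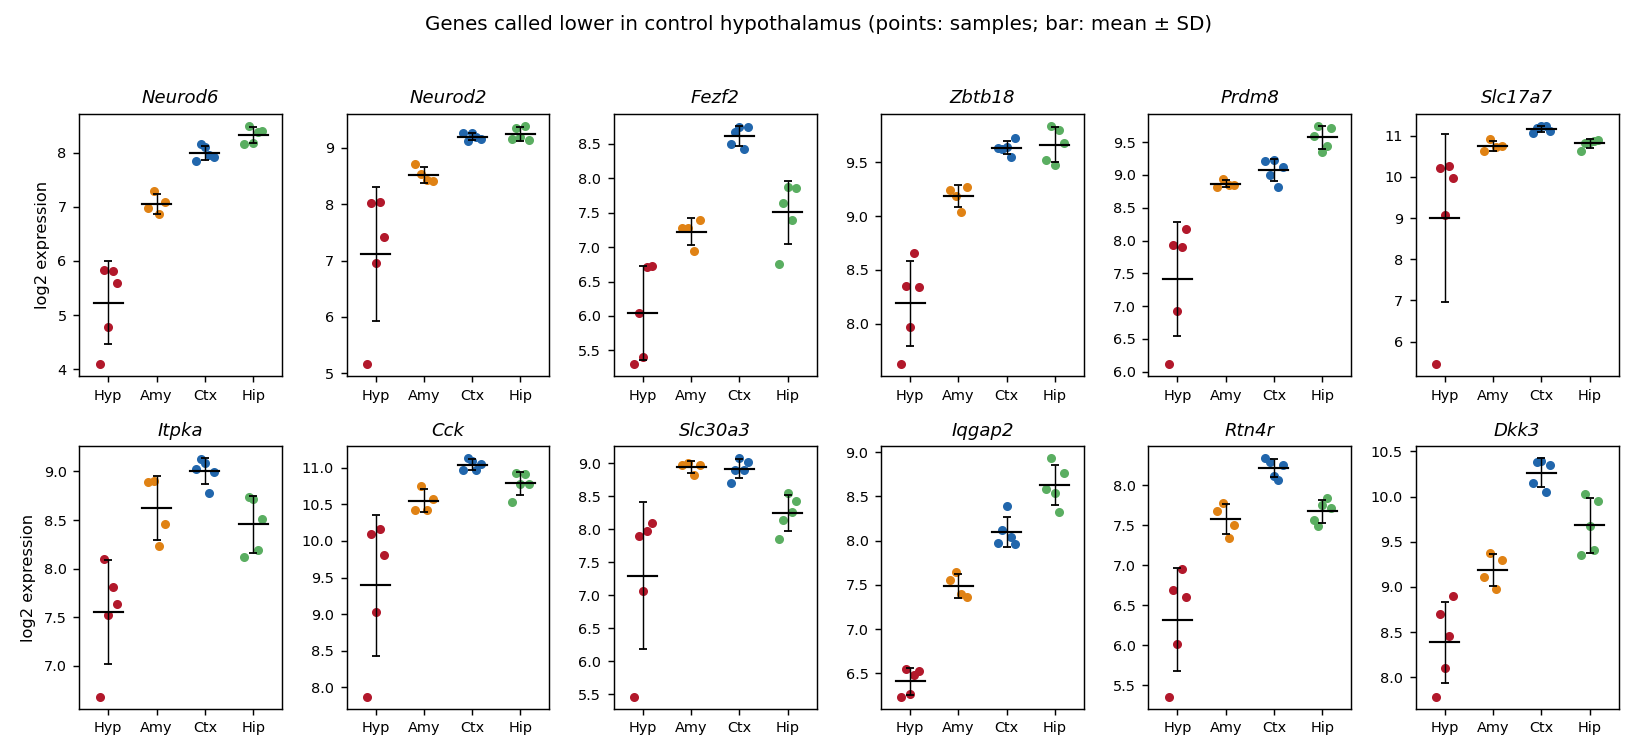
Log2 expression of 12 genes called lower in control hypothalamus, 1 point per sample by region (Hyp, Amy, Ctx, Hip), with bars for the mean ± SD. Hypothalamus replicate 1 is the lowest hypothalamus point in each panel, with 5.45 for *Slc17a7* and 5.16 for *Neurod2*.

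All but 1 of the 15 genes of forebrain excitatory neurons passed the adjusted p as lower, against 8.49% of all probe sets. Of these, 2 were lower by at least 1, against 0.252% of all probe sets, and the list median was -0.80. *Slc17a7*, vesicular glutamate transporter 1, was 5.45, 10.21, 9.08, 10.25 and 9.96 in the hypothalamus, with 10.63 to 10.91 in the amygdala, 11.06 to 11.23 in the cortex and 10.62 to 10.90 in the hippocampus. All 5 lay below the other regions, but replicate 1 was far below its group. The difference was -1.95 (SE 0.46, adjusted p = 0.00818), and -1.08 without hypothalamus replicate 1. *Itpka*, a dendritic spine kinase, had -1.13 (SE 0.16), which was -0.91 without that sample, and the call was lost. The list then had 1 called gene. *Camk2a*, the abundant kinase of excitatory synapses, had -0.63, and *Nrgn*, for neurogranin, stopped just short of the size limit, both past the adjusted p alone. *Slc30a3*, the zinc transporter of glutamatergic vesicles, was 7.30 ± 1.11 and overlapped with the hippocampus (-1.42, SE 0.25). It lost its call, at -0.99, without mouse 1.

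Other genes with large negative differences are named here because they were chosen for having all hypothalamus values below the rest. *Prdm8*, a transcriptional regulator, had 6.11, 7.94, 6.93, 7.90 and 8.17 against at least 8.81 elsewhere (-1.76, SE 0.22). Its difference was -1.42 without hypothalamus replicate 1. *Cck*, for cholecystokinin, a peptide abundant in cortex, had 7.87, 10.09, 9.03, 10.16 and 9.81 against at least 10.43 (-1.42, SE 0.21). Its difference was -1.07 without mouse 1. *Iqgap2*, a scaffold protein of the actin cytoskeleton, had 6.23 to 6.55 against at least 7.36 (-1.65, SE 0.08, adjusted p = 1.64e-07). *Rtn4r*, the Nogo receptor that limits axon growth, came to -1.52 (SE 0.16), *Ptpn3*, a tyrosine phosphatase, to -1.57 (SE 0.15) and *Dkk3*, a secreted Dickkopf protein, to -1.31 (SE 0.10). The transcript *6530402F18Rik* had -1.32 (SE 0.21) and lost its call, at -0.99, without hypothalamus replicate 1. Groups did not overlap in 34 of the 64 genes called lower and in 60 of the 132 called higher. Over all probe sets the hypothalamus lay wholly below the other samples in 0.771% and wholly above in 0.81%. Immediate early genes were lower as well in 13 of 16 by the adjusted p, against 8.49% of all probe sets, with a median of -0.49, and 1 was called. *Nr4a3*, an orphan nuclear receptor induced by activity, had 5.59 to 6.29 in the hypothalamus and at least 6.52 elsewhere (-1.11, SE 0.12). *Egr1* (-0.79) and *Arc* (-0.80) passed the adjusted p and had their highest means in the cortex, 8.90 and 9.40.

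A call against the mean of the regions did not always set the hypothalamus apart. Of the genes called higher, 4 had a mean at or above the hypothalamus in another region. *Ndst4*, a heparan sulfate sulfotransferase, was 6.87 in the hypothalamus and 7.05 in the amygdala but 3.76 in the cortex (1.44, SE 0.11). *Arhgap6* was 7.65 and 7.67, with 5.69 in the cortex (1.16, SE 0.13). *Zic1*, a zinc finger factor, had 9.14 in the hypothalamus but 9.79 in the hippocampus (1.01, SE 0.15), and *Stoml3*, a stomatin-like membrane protein, had 6.25 and 6.43 (1.02, SE 0.20). *Zic1* lost its call, at 0.90 to 1.00, without mouse 1 or 5, amygdala or cortex replicate 1 or 5, hippocampus replicate 2 or 3, or hypothalamus replicate 1 or 5. *Stoml3* lost it, also at 0.90 to 1.00, without mouse 1, 2 or 5, amygdala replicate 1 or 2, cortex replicate 5, hippocampus replicate 3, or hypothalamus replicate 1, 2, 3 or 5. A single gene called lower was of the same kind. *Ramp3*, which escorts calcitonin-family receptors to the membrane, was 4.88 in the hypothalamus and 4.82 in the amygdala, with 7.08 in the hippocampus (-1.02, SE 0.13). Its call was lost, at a size of 0.95 to 0.9995, without mouse 2 or 5, amygdala replicate 2 or 5, cortex replicate 3, hippocampus replicate 1 or 2, or hypothalamus replicate 2 or 5.

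Markers of neighboring tissue differed between the regions. The 10 thalamic genes had a mean of 7.34 to 8.19 in the hippocampus samples, 5.65 to 6.16 in the hypothalamus and at most 5.61 in the amygdala and cortex, and *Prkcd*, a kinase of thalamic neurons, was at least 10.04 in the hippocampus and at most 7.13 elsewhere. The 12 choroid plexus genes had a mean of 6.39 to 7.60 in the hippocampus and 4.89 to 5.66 in the hypothalamus, and none was called. *Ramp3* belonged to the thalamic list and was its 1 called gene. Of 7 pituitary genes *Gh*, for growth hormone, was called, with 7.45, 9.16, 7.38, 11.01 and 8.04 in the hypothalamus, 6.40 to 10.29 in the amygdala and 4.46 to 4.86 in the cortex (2.06, SE 0.58, adjusted p = 0.0228). Its adjusted p was 0.0645, 0.0710 and 0.0874 without hypothalamus replicates 1, 2 and 4, and up to 0.11 without mouse 1, 2 or 4. *Prl*, for prolactin, was highest in the same sample, replicate 4, with 8.30, and had a difference of 1.07 that did not pass. The gonadotropin genes *Lhb* and *Fshb* were at 4.0 and 3.6. Of 3 blood genes the hemoglobin gene *Hbb-bt* was called with 1.21 (SE 0.16), at 6.48 and 6.75 in hypothalamus replicates 1 and 2 and 5.10 to 5.22 in the other 3. What these tissues add to the regional differences was not tested.

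The median SD over the 5 hypothalamus samples was 0.39 for the genes called higher and 0.52 for those called lower, against 0.14 for all probe sets, while for the same genes the amygdala had 0.28 and 0.19, the cortex 0.20 and 0.13, and the hippocampus 0.26 and 0.23. Among the 10 named genes with the largest SD, *Slc17a7* (2.03), *Neurod2* (1.19) and *Slc30a3* (1.11) were lowest in replicate 1. *Gal* (1.24), *Irs4* (1.09) and *Nts* (0.97) were lowest in replicate 4 and highest in replicates 1 or 3. In 83 of the 132 genes called higher replicate 1 was the highest of the 5, in 97 replicate 4 was the lowest, and in 57 of the 64 called lower replicate 1 was the lowest. Over all probe sets these shares were 25.2%, 24% and 24.6%. *Ttr*, for transthyretin of the choroid plexus, spanned 7.94 to 12.22 (SD 1.79), and *Gh* 7.38 to 11.01 (SD 1.52). The remaining genes were the glycolytic gene *Pgam1* (1.04) and the miRNA gene *Mir341* (0.99), neither of which differed between regions by the test (adjusted p = 0.282 and 0.575).

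**Figure D4:**
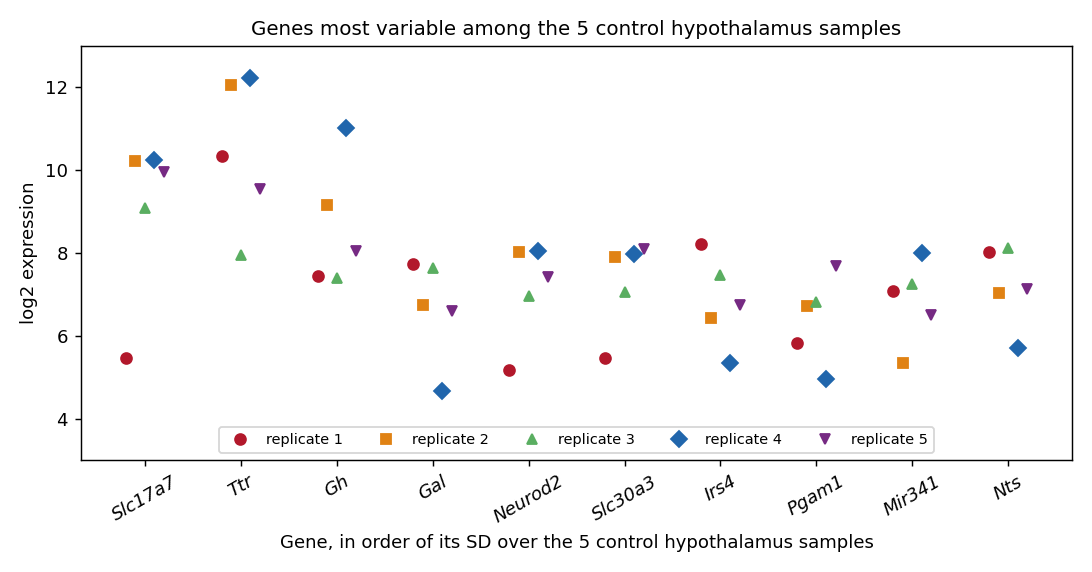
Log2 expression in each of the 5 control hypothalamus samples, marked by replicate, of the 10 named genes with the largest SD among them and a mean of at least 6, in order of SD. Replicate 1 is low for *Slc17a7*, *Neurod2* and *Slc30a3* and high for *Irs4*, and replicate 4 is low for *Gal*, *Irs4* and *Nts* and high for *Gh*.

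The same contrast in the 5 PianpKO mice, which shared no sample with the control fit, gave 107 probe sets higher (0.421%) and 40 lower (0.157%). All 132 genes called higher in control mice were positive and all 64 called lower were negative in PianpKO mice. Of these, 99 and 30 were called there too, and 127 and 64 passed the adjusted p in the same direction, against 7.64% of all probe sets higher and 7.74% lower. Fewer repeated against each region separately. There 26 probe sets (0.102%) were above and 5 (0.0197%) below every other region, and these held 20 of the 37 and 3 of the 14 of control mice. The median difference was 1.31 in control and 1.22 in PianpKO mice for the higher genes and -1.19 and -0.96 for the lower. Genes had been selected on the control values, so that smaller differences in the other mice are no measure of a genotype effect. Across all probe sets the differences had a Pearson correlation of 0.858, which is a description over genes that are not independent. *Oxt* had 4.52 (SE 0.33), *Trh* 3.33 (SE 0.22), *Dgkk* 2.80 (SE 0.17), *Calcr* 2.52 (SE 0.15) and *Neurod6* -2.08 (SE 0.16) in PianpKO mice. *Slc17a7* was between 9.57 and 10.34 in all 5 PianpKO hypothalamus samples, none as low as control replicate 1, and its difference was -1.12 (SE 0.11). In the PianpKO amygdala *Oxt* reached 9.40 and *Avp* 12.45 in replicate 3, above the lowest PianpKO hypothalamus samples (8.97 and 11.92), so that these genes did not separate the regions there. *Gh* (1.30, adjusted p = 0.136) and *Stoml3* (0.74, adjusted p = 0.0561) did not pass in PianpKO mice.

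**Figure D5:**
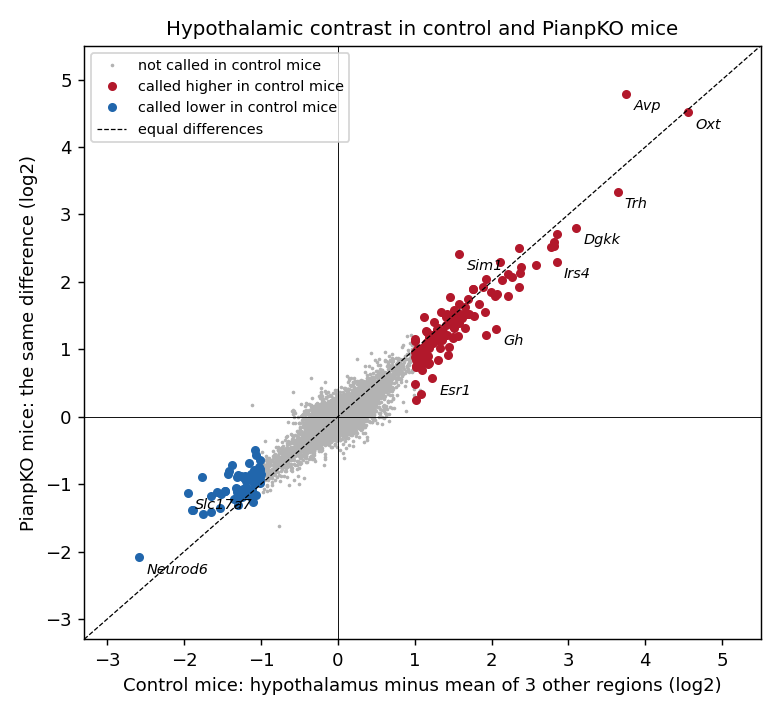
Log2 difference of the hypothalamus from the mean of the 3 other regions for 25429 probe sets in control mice (x axis) and PianpKO mice (y axis), with the genes called in control mice in color and the dashed line at equal differences. The 132 called higher are all above 0 and the 64 called lower all below 0 on the y axis.

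A test of the difference between the 2 genotypes' contrasts passed no probe set at an adjusted p under 0.05 (0 called, 0%), by limma over all 39 arrays, and 1307 had an unadjusted p under 0.05. The smallest adjusted p was 0.948, shared by the 5 named genes with the smallest values. Their changes of the contrast, PianpKO minus control, were 0.23 for *Rph3a*, a synaptic vesicle protein, 0.91 for the deubiquitinase gene *Usp17lc*, -0.48 for *Nabp1*, 0.63 for the miRNA gene *Mir134* and 0.49 for the transcription factor *Ebf3*. The median SE of such a difference was 0.0975 over all probe sets, but 0.48 for *Oxt*, 0.46 for *Avp* and 0.32 for *Irs4*. None passed, so no gene can be named as differing, and in such genes a sizeable change could be missed. As examples of larger changes among the named genes, *Avp* went from 3.75 to 4.79 and *Sim1* from 1.58 to 2.42. *Esr1* went from 1.23 to 0.57 and *Prdm8* from -1.76 to -0.89. The adjusted p-values of these differences were 0.948 to 0.958. Smaller changes were -0.04 for *Oxt* and -0.17 for *Slc5a7*. *Pianp* itself was not called. In control mice it was 7.51, 7.86, 8.06, 7.96 and 7.74 there, 7.94 ± 0.13 in the amygdala, 8.01 ± 0.14 in the cortex and 7.46 ± 0.28 in the hippocampus (difference 0.01, SE 0.07, adjusted p = 0.945). In PianpKO hypothalamus it was between 5.48 and 5.98.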

How the data were processed

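RNA of punched brain regions was hybridized to Affymetrix Mouse Gene 2.0 ST arrays. The authors deposited log2 values, normalized by RMA and quantile normalization and summarized with a custom Entrez-based chip definition (version 21). All 39 sample columns were mapped and 0 were left unused, and intensities before normalization were not used here. Of 25429 probe sets, 24675 had 1 gene symbol and 754 none, and none was filtered. The methods' ANOVA was replaced by limma 3.58.1 (R 4.3.3) with region means and a fixed mouse term (11 residual degrees of freedom), Benjamini-Hochberg adjustment over all probe sets and an unmoderated ANOVA as an alternative. Pairing came from the mouse number in the labels, since regions of 1 number are from 1 animal. Deviations from region means of same-mouse samples correlated at -0.084 to 0.386 (median 0.159, 27 pairs), against a median of -0.046 for other mice. PianpKO mice were fitted alone, and the genotypes were compared in 1 fit of 39 arrays with mouse nested in genotype. The script was tested on simulated data. Array number limits the precision.

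Genes are named by these rules: the 12 largest differences in each direction whose groups do not overlap, up to 3 called genes per direction of 24 lists, called genes with another region at or past the hypothalamus, the 10 with the largest hypothalamic SD at a mean of 6 or more, the 5 with the smallest p for genotype, and *Pianp*. Other list members are given by value where their list is described. The comparison, members and lists were chosen with earlier results of these data known. Alternatives were another block, centering, quantile normalization, a filter, variance models, array weights, thresholds, and leaving out each mouse or array. Promoters are from RefSeq (GRCm38.p6).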

Additional observations from a re-analysis of the deposited data

Results flagged for a closer look

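In 240 sets of control values (60 named genes in 4 regions), 7 had a sample standing apart from its group by Dixon's test, where chance gives about 1 in 20, and none of these was weighed further. In the hypothalamus, *Slc17a7* was 5.45 in replicate 1 against 9.08 to 10.25 in the others, *Zic1* was 9.47 in replicate 1 against 9.02 to 9.12, and *Ndst4* was 7.73 in replicate 2 against 6.56 to 6.75. In the hippocampus, *Dgkk* was 4.37 in replicate 4 against 5.24 to 5.52, and replicate 3 had *Ramp3* at 6.27 against 7.16 to 7.42 and *Nr4a3* at 7.41 against 7.64 to 7.72. In the cortex, *Resp18* was 8.73 in replicate 2 against 8.30 to 8.38. No named gene passed an adjusted p under 0.05 for a difference of the contrast between genotypes.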

How the results depend on the processing

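Counts against the mean of the regions stayed within 1.5 times under other blocks, centering, quantile normalization, the filter, variance models, array weights, the methods' ANOVA and the fit of 39 arrays. Without the replicate block 129 probe sets were higher and 66 lower in control mice, and with the mouse as a random replicate block (correlation 0.121) 130 and 65. The lowest array weight, 0.535, was that of hypothalamus replicate 1. The study's limits for its genotype comparison were 0.7 on the log2 scale and a p under 0.001. The methods name a false discovery rate correction but do not say whether that p was adjusted, and it was taken here as unadjusted. At these limits the counts were 273 higher and 231 lower, 81 above and 49 below each region, and 227 and 164 in PianpKO mice. Tested against a difference of 1 (limma's treat), they were 27 and 2, 0 and 0, and 29 and 1. Leaving out 1 mouse or array gave at least 104 higher and 37 to 85 lower in control mice, 24 to 47 above and 3 to 23 below each region, 98 to 121 higher and 31 to 65 lower in PianpKO mice, and 0 for the difference between genotypes. The lower count of PianpKO mice was 65 without PianpKO mouse 3 or its hypothalamus array. Without control mouse 1 there were 37 lower, 24 above each and 3 below each, and without control mouse 4, 22 below each.

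No named gene called in the comparison reversed. Of 1682 alternative values of these 51 genes at unchanged call limits, 1634 kept the call and 48 lost it. The losses were in *Gh*, *Zic1*, *Stoml3*, *Ramp3*, *Slc6a11*, *Itpka*, *Slc30a3* and *6530402F18Rik*. At the same limits, counts of called genes in the lists moved in 52 of 1584 values. Other thresholds are not among these values. Under treat only 27 higher and 2 lower probe sets were left on the whole array, so many named genes lose their call there. *Stoml3* was 0.99 without the replicate block and 1.00 with it as a random effect, just under the size limit, *Zic1* was 0.98 with array weights, and *Gh* had adjusted p-values of 0.0534 with trend and robust variance and 0.0603 in the ANOVA. The list of hypothalamic transcription factors had means of 4.80 to 4.94 in the control hypothalamus samples, close to the array median of 4.62. Signal over background was not measured, and how far it limits such low genes was not tested.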
